A study of Caenorhabditis elegans with 24 samples.

Results

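Small RNAs antisense to the mRNAs of histone methyltransferase and demethylase genes were examined in C. elegans. The genes were chosen by name from the deposited table: every set and jmjd gene that carries a number, and met-1, met-2, mes-2, mes-4, spr-5, lsd-1, rbr-2 and utx-1. The rule matched 42 rows, and after keeping 1 row per gene (set-1 had a second one) it gave 41 of 20167 genes, namely 32 set genes, jmjd-2 and the 8 genes named singly. All 41 passed the filter on low values (a mean of at least 1 RPKM over 24 libraries), as did 19839 genes in all. The rule itself uses names and no measured value.

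Histones carry methyl groups on lysines, written by SET domain proteins and erased by LSD1-type and JmjC domain proteins. Methylation of histone H3 at lysine 4 and lysine 36 goes with transcribed chromatin, and methylation at lysine 9 and lysine 27 with silenced chromatin. In the C. elegans germline, MET-2 and SET-25 write lysine 9 methylation, MES-2 is the lysine 27 methyltransferase of the Polycomb-like complex, and MES-4 and MET-1 write lysine 36 methylation. Small interfering RNAs (siRNAs) made by RNA-dependent RNA polymerases are antisense to mRNAs. HRDE-1 is the germline Argonaute protein that takes such siRNAs into the nucleus, where its pathway directs lysine 9 methylation at target genes. The values below are therefore levels of siRNAs that match each gene, not of its mRNA or protein.

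The study grew the wild-type strain N2 (WT) and the mutant hrde-1(tm1200), a deletion allele, for 12 successive generations. Animals were kept for 3 generations at 15 °C (15C-G1 to G3, phase I), then for 6 at 23 °C (23C-G1 to G3, phase II, and 23C-G4 to G6, phase III), then for 3 at 15 °C (p15C-G1 to G3, phase IV). Whole young adults fed OP50 bacteria were collected, 114 to 120 h after plating of first-stage larvae where growth was at 15 °C, or 50 to 55 h in the 23 °C generations. The libraries are of the repeat numbered 2, with 1 library per genotype and generation, so that each phase and genotype has 3 libraries from successive generations of 1 population. These are not separate cultures, and p-values measure the spread between generations. In whole animals, fewer cells that make an siRNA and less siRNA per cell cannot be told apart.

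The level is given in RPKM, reads scaled to a kilobase of exon and to the total read number. No value in the table was 0. Low values lay at multiples of a smallest value scaled by gene length, as if 1 read were the floor, and if 1 step is 1 read the libraries rest on 299500 to 1043000 reads. Read numbers below are inferred in this way. For set-6, set-11, set-12, set-15, set-18 and set-20 no annotated length put the lowest value at 1 read. Their length was instead set so that it is 1 read, which fixes that minimum by construction. Per kilobase 1 read was worth 0.96 to 3.34 RPKM, more in the shallower libraries, which included most of those at 23 °C. A gene with few siRNAs therefore follows depth. siRNAs against the hrde-1 gene itself were at 249.69 to 320.55 RPKM over the 12 WT libraries. The 12 mutant libraries lay below them, at 119.36 to 164.0 RPKM. The 8 germline marker genes listed summed to 918 to 1285 RPKM in WT and 1017 to 1582 RPKM in hrde-1, and the 7 intestine markers to no more than 28.6 RPKM. The 7 oocyte markers summed to 381 to 631 RPKM in WT and 522 to 684 RPKM in hrde-1, the 8 sperm markers to 93.7 to 259 and 55.8 to 204 RPKM, and the 4 of 6 epidermis markers tested to 9.99 to 23.8 and 7.07 to 22.3 RPKM. In 15C-G1 to G3 the sum over the 3 of 6 muscle markers tested was apart between genotypes (13.3 to 19.9 RPKM in WT, 3.87 to 4.42 RPKM in hrde-1). So were the sums over the 5 of 6 neuron markers tested (120 to 213 and 229 to 282 RPKM) and the oocyte markers (551 to 603 and 660 to 684 RPKM). All of these were apart in p15C-G1 to G3 as well. There the sums of germline (1225 to 1285 and 1288 to 1435 RPKM), intestine (21.6 to 28.6 and 12.0 to 15.3 RPKM) and epidermis markers (12.85 to 13.34 and 7.07 to 8.69 RPKM) were also apart. Sperm sums overlapped in both. Single markers averaged only 1.6 to 4.44 RPKM in muscle, 1.57 to 3.43 RPKM in intestine and 1.78 to 5.96 RPKM in epidermis. Such levels are close to the worth of 1 read per kilobase, so that these 3 sums follow depth as well. The part of these lists in the results below was not tested.

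Levels of siRNAs differed widely among the 41 genes. Mean RPKM over all 24 libraries ran from 1.29 for set-30 to 437 for set-23, with a median gene at 55.9, against a median of 6.47 over all 19839 genes. Of the 41 genes, 22 had at least 50 RPKM, as had 18.1% of all genes. The 5 highest were set-23, set-9, set-31, set-21 and set-26. SET-23 is related by sequence to lysine 9 methyltransferases, and SET-9 and SET-26 are close paralogs with a PHD finger that binds methylated lysine 4. As paralogs, set-9 (mean 234 RPKM) and set-26 (mean 174 RPKM) can share siRNAs. Both are uncertain, since the handling of reads with several matches is not stated in the sources used.

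Genes on the X chromosome stood at the low end. By the WBcel235 annotation 10 of the 41 lie on X, and 7 of those 10 had a mean under 10 RPKM: set-6, set-12, set-19, set-20, set-30, lsd-1 and utx-1. Among all X genes tested, 79.8% were under 10 RPKM. Of the 31 autosomal genes, 3 were under 10 RPKM (9.68%), namely set-11, set-13 and set-15, against 54.2% of all autosomal genes tested. The median of the means was 4.59 RPKM on X and 62.4 RPKM on the autosomes. Over all genes tested the same medians were 3.81 and 7.60 RPKM. The highest of the X genes was set-33 (55.9 RPKM), which WBcel235 annotates as a pseudogene.

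**Figure D1:**
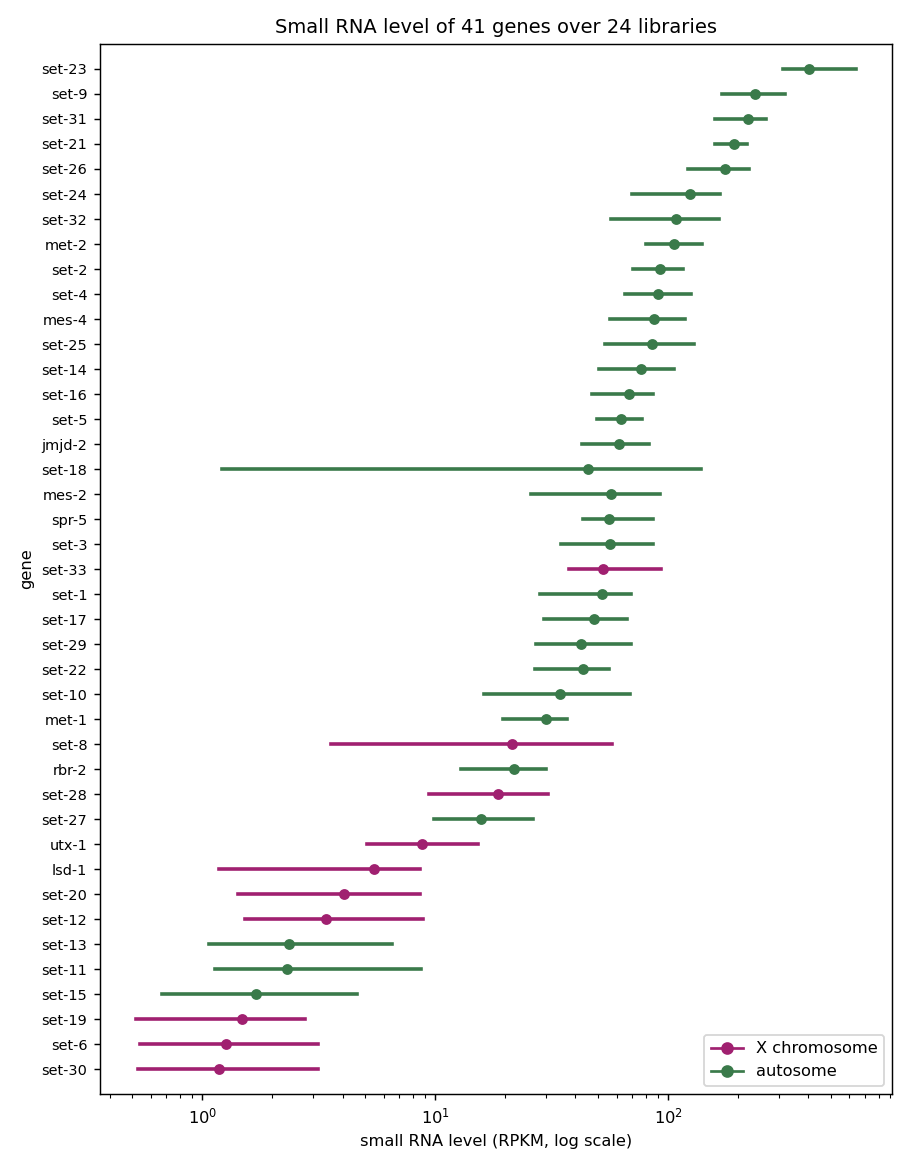
Small RNA level of each of the 41 genes in RPKM on a log axis, with a line from the lowest to the highest of 24 libraries and a dot at the median, coloured by X chromosome or autosome. The genes span from set-30 to set-23, 7 of the 10 X genes lie at the bottom, and set-18 has by far the longest line.

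The spread over generations was small for most genes with many siRNAs. In the 12 WT libraries the highest value of set-21 was 1.32 times its lowest, that of set-31 1.52 times and that of set-9 1.47 times. In the 12 hrde-1 libraries these ratios were 1.36, 1.38 and 1.73. Of the 31 genes with a mean of 10 RPKM or more, set-8 had the widest spread in WT (2.92 times) apart from set-18. That gene reaches 10 RPKM only through hrde-1 (mean 4.06 RPKM in WT and 111 RPKM in hrde-1). Its WT ratio of 8.41 rests on 1 to 6 reads per library. Ratios of 6.71 for set-15 and 6.41 for set-11, both under 10 RPKM, stand beside it. In hrde-1 set-8 was the widest (8.85 times), while set-18 was steady (1.72 times).

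For each phase the question was which genes gain or lose siRNAs without HRDE-1. A gene was called where it differed 2-fold or more with an adjusted p of 0.1 or less (limma on log2(RPKM + 1), Benjamini-Hochberg over all 19839 genes). Fold changes below are on that log2 scale, which understates the change of low genes. In phase I, 2 of 41 genes were called higher in hrde-1 (set-18 and set-10; 3.72% of all genes were called higher) and 1 lower (set-11; 4.1% of all genes). In phase II, 1 was higher (set-18; 2.5% of all genes) and none lower (3.2%). In phase III, 1 was higher (set-18; 2.68%) and none lower (3.18%). In phase IV, 1 was higher (set-18; 3.65%) and 1 lower (set-8; 4.34%). In the mean of the 4 phases, 1 was higher (set-18; 2.7%) and 1 lower (set-8; 3.21%). At an unadjusted p under 0.05 by limma there were 12, 8, 11 and 5 genes in phases I to IV, both directions together, and no second tool was run. The share of all genes at that p was not taken, so these counts and later ones at that p have no background. The counts of called genes are small in each phase and, at 41 genes, near the shares over all genes. The median log2 fold change of the 41 genes was 0.19, 0.09, 0.00 and -0.03 in phases I to IV, against -0.19, 0.14, 0.11 and 0.07 over all genes. By non-overlap alone, 9, 5, 6 and 8 of the 41 genes had all 3 mutant libraries above all 3 WT libraries in phases I to IV (9.76%, 8.52%, 8.08% and 10.6% of all genes), and 4, 5, 7 and 10 had them below (36.1%, 7.46%, 8.58% and 12.9%). In phase I the share of all genes below is high, and the WT libraries there rest on 369700 to 502700 implied reads and the mutant ones on 509700 to 771700.

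The gene set-18 stood apart from the other 40. SET-18 is a SET and MYND domain (SMYD-type) protein that methylates lysine 36 of histone H3, and its gene lies on chromosome I at 10590703 to 10593968 on the plus strand (WBcel235, protein coding). In WT its siRNAs were at 1.22, 1.66 and 1.28 RPKM in 15C-G1 to G3, at 3.43, 6.22, 3.31, 10.26, 5.38 and 4.45 RPKM in 23C-G1 to G6, and at 6.31, 2.36 and 2.86 RPKM in p15C-G1 to G3. In hrde-1 they were at 138.2, 115.68 and 80.4 RPKM in 15C-G1 to G3, at 117.82, 113.99, 113.07, 97.47, 119.26 and 118.58 RPKM in 23C-G1 to G6, and at 103.19, 104.89 and 104.01 RPKM in p15C-G1 to G3. The lowest mutant library thus lay far above the highest WT library, and set-18 was the 1 gene of the 41 whose 12 mutant libraries did not overlap its 12 WT libraries (1.36% of all genes were higher without overlap, 1.34% lower).

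The log2 fold change of set-18 was 5.53 ± 0.29 (SE, n = 3 against 3) in phase I, 4.49 ± 0.29 in phase II, 3.94 ± 0.29 in phase III and 4.53 ± 0.29 in phase IV, with adjusted p from 3.12e-12 to 7.18e-10 by limma. Averaged over phases it was 4.62 ± 0.15 (adjusted p = 2.25e-17 by limma), which was rank 15 of 19839 genes counted from the largest increase. In the WT libraries of phase I set-18 was at 1 read each, the floor, so that the fitted value there depends on the pseudocount. Against 3 reads per WT library in place of 1, the mutant mean of 111 RPKM was at least 26.8-fold higher. In phases II to IV the WT libraries held 2 to 6 reads of set-18 each, and the mutant libraries 55.1 to 116 reads. The ratio of the mean RPKM was 26.6 in phase II, 16.7 in phase III and 27.1 in phase IV.

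**Figure D2:**
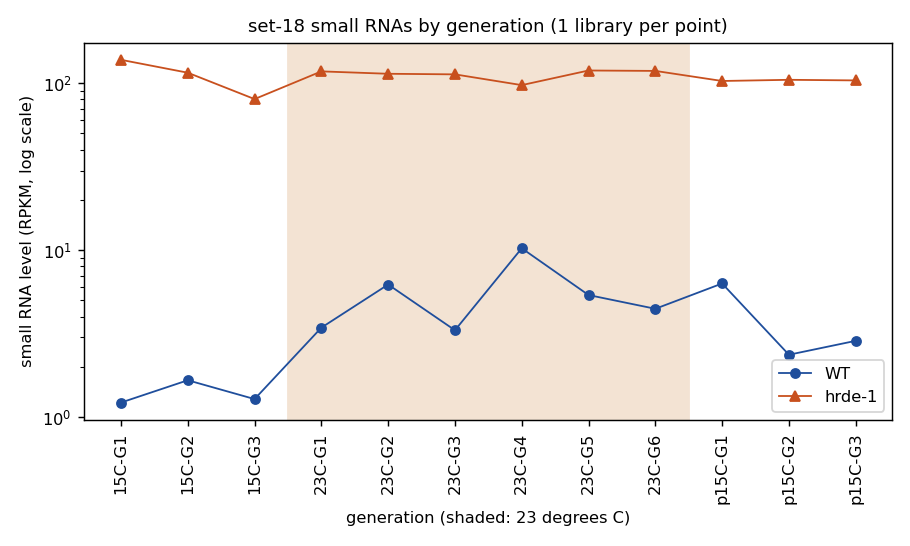
Level of siRNAs against set-18 in RPKM on a log axis over the 12 generations, with 1 library per point, WT as circles and hrde-1 as triangles, and the 23 °C generations shaded. The mutant stays between 80.4 and 138 RPKM throughout, and WT stays between 1.22 and 10.3 RPKM.

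The genes beside set-18 did not show this size of difference. The left neighbour lst-1, a Notch target that acts in germline stem cells, ends 238 bases before it on the same strand. Its siRNAs averaged 16.7 RPKM in WT and 25.6 RPKM in hrde-1, with a log2 fold change of 0.63 ± 0.15 over the 4 phases (adjusted p = 0.00347 by limma), under 2-fold. The right neighbour T22A3.6 starts 1538 bases after it and averaged 13.1 RPKM in WT against 9.38 RPKM in hrde-1 (-0.40 ± 0.14, adjusted p = 0.0569 by limma).

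Lower in the mutant was set-8, a SET domain gene on X at 13446718 to 13448230 (plus strand). In WT its siRNAs were at 19.55, 22.16 and 20.43 RPKM in 15C-G1 to G3, at 57.15, 35.23, 35.32, 24.61, 43.0 and 22.23 RPKM in 23C-G1 to G6, and at 26.63, 31.4 and 33.07 RPKM in p15C-G1 to G3. In hrde-1 they were at 8.6, 12.85 and 11.67 RPKM in 15C-G1 to G3, at 22.2, 31.52, 10.77, 9.45, 14.79 and 18.6 RPKM in 23C-G1 to G6, and at 3.56, 19.6 and 8.67 RPKM in p15C-G1 to G3. Within each phase the 3 mutant libraries lay below the 3 WT libraries. Over all phases the ranges overlapped, since the highest mutant value (23C-G2) was above several WT values. The mean over phases was -1.15 ± 0.21 (adjusted p = 0.00018 by limma) and phase IV gave -1.69 ± 0.41 (adjusted p = 0.00796 by limma). Phases I to III gave -0.87, -1.04 and -1.01, which were not called (adjusted p from 0.178 to 0.233 by limma). Without hrde-1 23C-G2, set-8 was called lower in phase II as well (-1.36), which made 2 genes called there in place of 1. With a pseudocount of 10 RPKM the mean over phases was -0.77, under 2-fold. These values rest on 3 to 15 reads per mutant library. Its right neighbour F02D10.6, 1356 bases away on the other strand, averaged 18.3 RPKM in WT against 9.46 RPKM in hrde-1 (-0.89 ± 0.24, adjusted p = 0.00917 by limma), and the left neighbour jmjd-3.3, 5280 bases away, 84.1 against 64.8 RPKM (-0.54 ± 0.14, adjusted p = 0.00472 by limma), both under 2-fold. Calls lower in hrde-1 were more frequent on X in general, with 6.9% of 2565 X genes and 2.61% of 16691 autosomal genes in the mean of the phases.

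In phase I 2 further genes were called. For set-10, an SMYD-type SET gene on chromosome I at 15027713 to 15030708 (minus strand), the WT libraries 15C-G1 to G3 had 16.23, 30.1 and 33.92 RPKM and the mutant ones 66.76, 65.49 and 49.03 RPKM, without overlap. The log2 fold change was 1.2 ± 0.30 (adjusted p = 0.00926 by limma). From 23C-G1 to G6 WT was at 32.1, 37.55, 20, 34.68, 35.71 and 36.24 RPKM, and hrde-1 at 68.83, 30.59, 30.24, 25.68, 34.33 and 37.91 RPKM. In p15C-G1 to G3 its WT values were 24.75, 34.13 and 31.11 RPKM, and its mutant values 36.53, 31.96 and 40.37 RPKM. The mutant libraries 15C-G1 to G3 and 23C-G1 of set-10 were thus above every WT library, and the later ones lay within or near the WT range. Phases II, III and IV gave 0.45, -0.14 and 0.27, none called. The gene F33H2.2 overlaps the end of set-10 on the other strand and averaged 30.3 RPKM in WT and 31.3 RPKM in hrde-1. The right neighbour F33H2.8, 433 bases away, was called higher in the mutant over the 4 phases (1.95 ± 0.16, adjusted p = 7.12e-10 by limma; 7.30 and 30.8 RPKM).

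The other was set-11, which is related by sequence to lysine 9 methyltransferases and lies on chromosome II at 2690472 to 2692576 (minus strand). In 15C-G1 to G3 its WT libraries had 8.66, 3.14 and 4.53 RPKM and its mutant ones 2.61, 1.71 and 1.13 RPKM (log2 fold change -1.14, adjusted p = 0.00779 by limma). In the other 18 libraries it lay between 1.26 and 2.98 RPKM, and 16 of all 24 libraries were at 1 read. No library held more than the 5 reads of WT 15C-G1. Without WT 15C-G1 the fold change of set-10 was 0.89 and that of set-11 -0.80, neither called, so that the count in phase I was 1 in place of 3. Without hrde-1 15C-G3 set-11 was at -0.95, also under 2-fold, and with a pseudocount of 10 RPKM neither gene reached 2-fold (0.96 and -0.37). WT 15C-G1 held the lowest of 24 values for 11 of the 31 listed genes averaging 10 RPKM or more, while 9.43% of all 8396 such genes had their lowest value there. The part of depth in these 2 calls was not tested.

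Many differences were smaller than 2-fold. At an adjusted p of at most 0.1 whatever the fold, the mean of the phases gave 12 of 41 genes higher in hrde-1 (12% of all genes) and 7 lower (11.2% of all genes). Of the genes averaging 10 RPKM or more these were 11 of 31 higher (35.5%, against 23.6% of all such genes) and 7 of 31 lower (22.6%, against 18.7%). That average is over both genotypes, so it is not independent of the direction tested. Only through its hrde-1 libraries is set-18 among the 31. The higher ones were set-18, set-10, set-12, set-17, set-26, set-29, set-32, set-4, set-9, jmjd-2, mes-2 and met-2. The lower ones were set-8, set-3, set-23, set-25, set-28, set-33 and rbr-2. Each direction holds writers as well as an eraser, jmjd-2 among the higher ones and rbr-2 among the lower ones.

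Among the lower ones are a writer of lysine 9 and an eraser of lysine 4 methylation. SET-25 writes trimethylation of lysine 9, and its siRNAs ranged from 84.6 to 129 RPKM in WT (median 103) and from 53.6 to 92.8 RPKM in hrde-1 (median 69.9). Within each of the phases I, II, III and IV the 3 mutant libraries of set-25 lay below the 3 WT libraries, and the mean log2 fold change was -0.58 ± 0.09 (adjusted p = 2.84e-05 by limma). RBR-2 is a JmjC demethylase of lysine 4. Its siRNAs ranged from 20.9 to 29.9 RPKM in WT (median 25.3) and from 12.9 to 22.6 RPKM in hrde-1 (median 17.95), with a mean log2 fold change of -0.47 ± 0.10 (adjusted p = 0.00101 by limma). Its groups did not overlap in phases II, III and IV and overlapped in phase I.

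For met-2, which writes mono- and dimethylation of lysine 9, the mean log2 fold change was 0.18 ± 0.07 (adjusted p = 0.073 by limma), and for set-32, a putative lysine 9 methyltransferase, it was 0.28 ± 0.10 (adjusted p = 0.0489 by limma). The median of the 6 genes listed as known or putative lysine 9 methyltransferases was -0.06, near that of all genes at 0.00. For mes-2, the lysine 27 writer, WT ranged from 25.7 to 57.8 RPKM and hrde-1 from 44.5 to 92.1 RPKM, with a mean log2 fold change of 0.42 ± 0.10 (adjusted p = 0.00545 by limma). The lysine 36 writers mes-4 (0.13, adjusted p = 0.333 by limma) and met-1 (0.19, adjusted p = 0.311 by limma) were not past the threshold. For the lysine 4 writers set-2, set-16 and set-17 the median was -0.06. The lysine 4 erasers spr-5 and lsd-1 and the lysine 27 eraser utx-1 were not past the threshold in the mean of the phases.

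**Figure D3:**
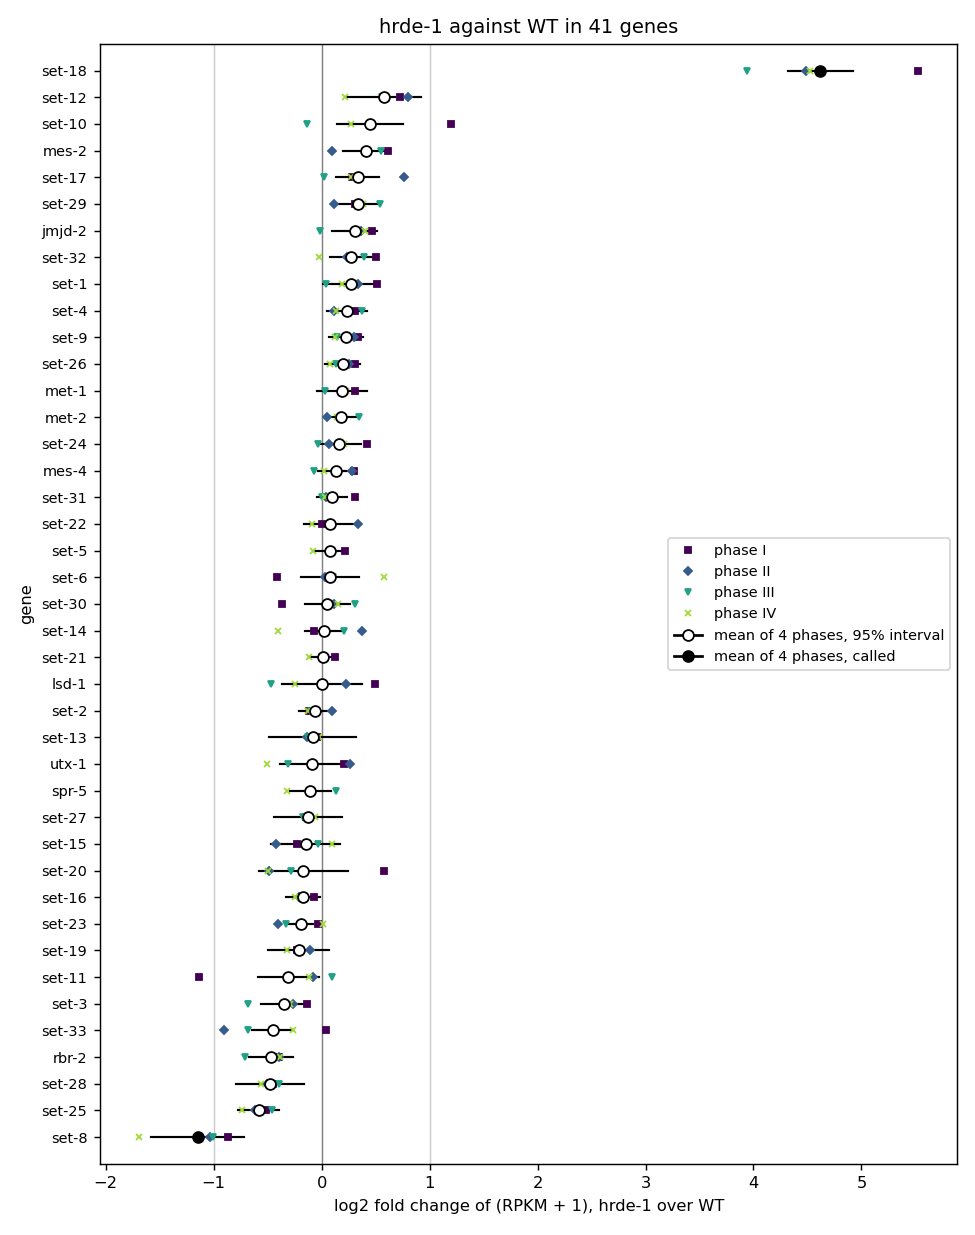
Log2 fold change of (RPKM + 1) between hrde-1 and WT for the 41 genes, with the mean of the 4 phases and its 95% interval as circles (filled where called) and the single phases as small symbols. The value of set-18 at 4.62 lies far to the right, set-8 at -1.15 is the other filled circle, and the other genes lie within 2-fold.

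The effect of temperature was taken from 23C-G2 to G6 against 15C-G1 to G3 for each genotype, leaving out 23C-G1, which met both temperatures. In WT 1 of 41 genes was called higher at 23 °C (set-18; 3.94% of all genes) and none lower (2.64% of all genes). Without WT 15C-G2, 15C-G3 or 23C-G4, set-11 was called lower too (-1.21 to -1.001), for a count of 2. In hrde-1 none was called higher (3.71%) or lower (2.7%) by limma, with 9 genes at an unadjusted p under 0.05 and no second tool run. Without hrde-1 15C-G3, set-10 was called lower (-1.05). Growth time differs with temperature in this design, and both cannot be told apart. The difference between genotypes in this response was called for 3 genes: set-11, whose change was the more positive in hrde-1 (1.11% of all genes), and set-10 and set-18, whose change was the more negative there (1.41% of all genes).

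In WT the siRNAs of set-18 rose at 23 °C by 1.46 ± 0.27 on the log2 scale (adjusted p = 0.000751 by limma), from 1 read in each library at 15 °C to 2 to 5 reads at 23C-G2 to G6. The 5 libraries at 23 °C all lay above the 3 at 15 °C. With a pseudocount of 10 RPKM this value was 0.47 and not called. In hrde-1 the change was 0.04 ± 0.27, and the difference of the responses was -1.42 ± 0.38 (adjusted p = 0.0548 by limma). For set-10 the response was 0.32 ± 0.23 in WT and -0.91 ± 0.23 in hrde-1, and the difference was -1.22 ± 0.32 (adjusted p = 0.0548 by limma). For set-11 the difference was 1.21 (adjusted p = 0.0768 by limma) at 1 to 5 reads. Without WT 15C-G1 or hrde-1 15C-G2 none of the 3 differences was called, without hrde-1 15C-G1 only set-11 was, and without WT 15C-G3 set-18 was not. The set-11 difference was also lost without WT 23C-G5 or 23C-G6 or without hrde-1 15C-G3, 23C-G3, 23C-G4 or 23C-G6 (1.023 to 1.211, adjusted p from 0.106 to 0.257 by limma), and with the floor taken off (1.498, adjusted p = 0.298 by limma).

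At an adjusted p of at most 0.1 whatever the fold, WT had 3 of 41 genes higher at 23 °C (set-18, set-23 and set-33; 6.39% of all genes) and 1 lower (set-11; 5.37%). In hrde-1 there were 2 higher (set-23 and set-30; 35.6% of all genes) and 6 lower (set-10, mes-4, set-5, set-16, set-21 and met-2; 7.86%). The mutant libraries 23C-G2 to G6 rest on 346600 to 442900 implied reads, fewer than those at 15 °C, so that the floor is higher in them, and its part in the share of all genes was not tested. The germline markers also had lower values at 23 °C, with a median log2 change of -0.33 over the 8 genes in hrde-1 and -0.22 in WT, none called, against 0.31 and 0.10 over all genes. They summed to 1180 to 1582 RPKM in hrde-1 15C-G1 to G3 and 1017 to 1259 RPKM in 23C-G1 to G6. The oocyte markers had -0.18 in hrde-1 and -0.21 in WT, and 3 of the 5 neuron markers were called lower in hrde-1. The other lists had positive medians. In hrde-1 these were 0.11 for sperm, 0.02 for intestine, 0.44 for muscle and 0.47 for epidermis markers. In WT they were 0.23, 0.22, 0.09 and 0.11. A sperm marker was called higher in WT, an epidermis marker higher in each genotype, and a muscle marker lower in WT. The part of these lists in the values of the 6 genes was not tested. For mes-4, which maintains lysine 36 methylation in the germline, hrde-1 had 106 to 117 RPKM at 15 °C and 62.1 to 103 RPKM in 23C-G2 to G6, without overlap (-0.55 ± 0.15, adjusted p = 0.0168 by limma). WT had 80.5 to 97.3 RPKM at 15 °C and 56.1 to 81.9 RPKM in 23C-G2 to G6 for mes-4 (-0.40 ± 0.15, adjusted p = 0.114 by limma), and the difference between genotypes was -0.16 ± 0.21. The lysine 4 writer set-16 was at 66.2 to 79.1 RPKM at 15 °C and at 47.0 to 61.4 RPKM in 23C-G2 to G6 in hrde-1 (-0.40 ± 0.12, adjusted p = 0.0184 by limma).

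The most abundant of the 41, set-23, was higher at 23 °C in both genotypes, at less than 2-fold. In WT it had 324.77, 386.49 and 336.49 RPKM in 15C-G1 to G3, then 564.89, 616.3, 575.76, 595.19, 642.97 and 563.66 RPKM in 23C-G1 to G6, and 335.24, 319.52 and 388.78 RPKM in p15C-G1 to G3. In hrde-1 it had 310.18, 381.66 and 330.59 RPKM, then 416.99, 463.81, 450.79, 471.02, 528.3 and 436.45 RPKM, and 334.97, 343.05 and 370.23 RPKM. All 6 libraries at 23 °C lay above all 6 at 15 °C within each genotype, 23C-G1 included. The log2 change was 0.78 ± 0.09 in WT (adjusted p = 7.64e-06 by limma) and 0.47 ± 0.09 in hrde-1 (adjusted p = 0.00228 by limma), and the difference between genotypes was not past the threshold (-0.31 ± 0.13, adjusted p = 0.262 by limma). After the return to 15 °C set-23 differed from the first 15 °C generations by -0.01 ± 0.11 in WT and 0.04 ± 0.11 in hrde-1.

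The pseudogene set-33 had a larger value at 23 °C in WT, with 40.2 to 59.6 RPKM at 15 °C and 53.0 to 93.2 RPKM in 23C-G2 to G6 (log2 change 0.65 ± 0.17, adjusted p = 0.0185 by limma). In hrde-1 the same groups had 41.7 to 55.1 and 37.5 to 47.3 RPKM (-0.20 ± 0.17, adjusted p = 0.384 by limma). The difference was -0.85 ± 0.24 (adjusted p = 0.083 by limma), and 11 of its 16 values without 1 library missed the threshold (adjusted p up to 0.207 by limma), as did median-ratio scaling (adjusted p = 0.11 by limma). Without WT 15C-G1 the WT change was 0.53 and missed the threshold (adjusted p = 0.125 by limma). In phase II the groups did not overlap, with -0.91 ± 0.18 between genotypes (adjusted p = 0.00167 by limma).

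**Figure D4:**
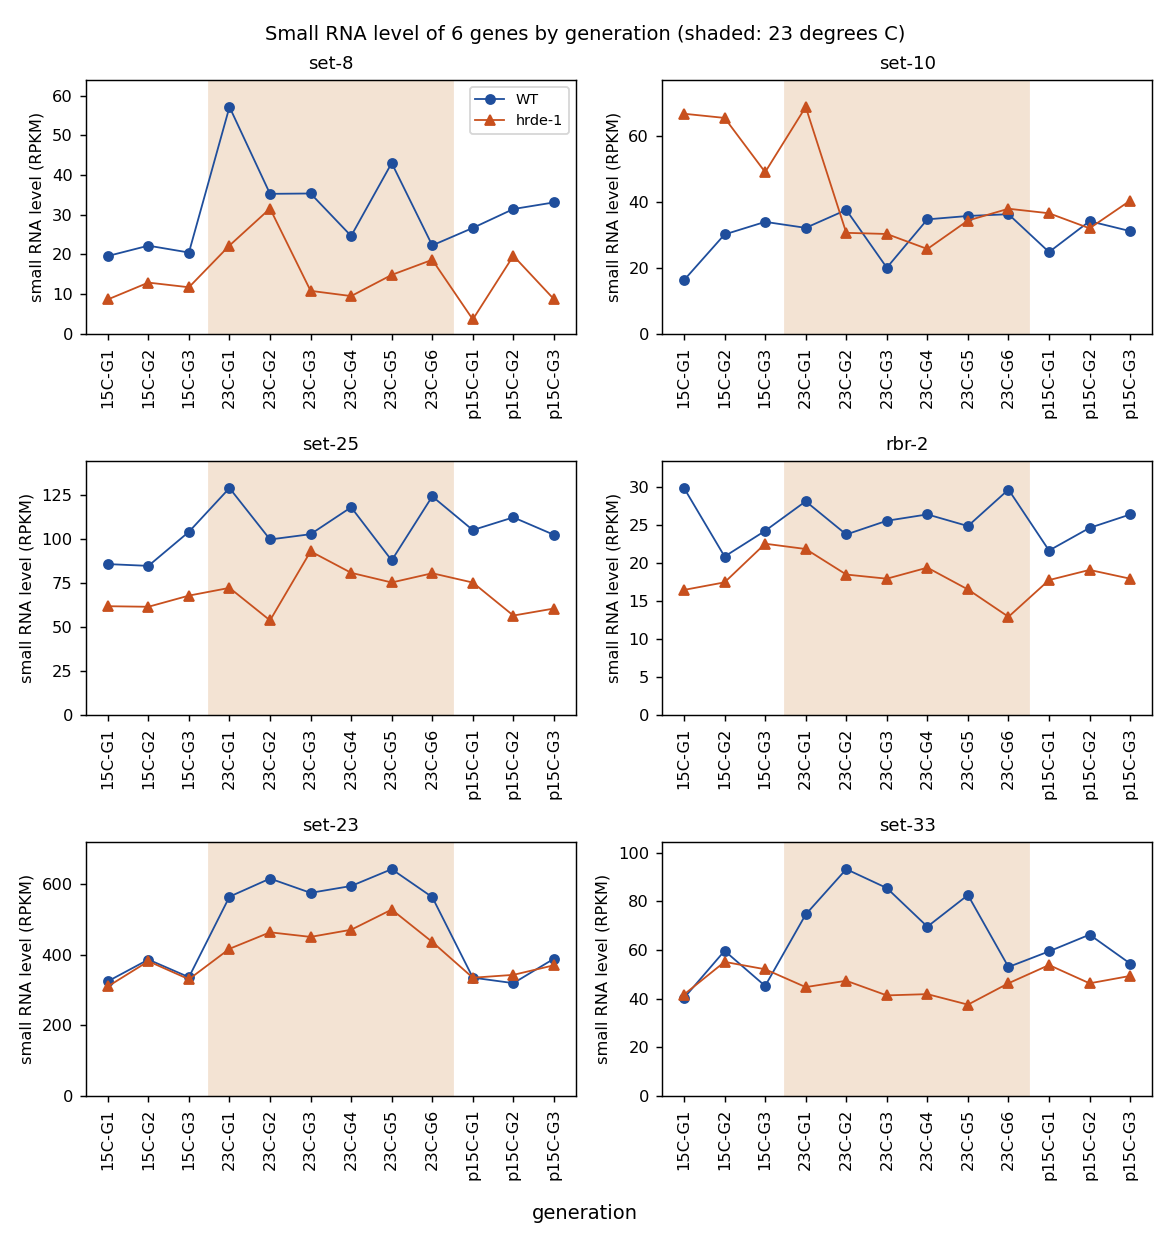
Levels of 6 of the genes in RPKM over the 12 generations, WT as circles and hrde-1 as triangles, with the 23 °C generations shaded and each axis starting at 0. The panel of set-23 shows a plateau at 23 °C in both genotypes, that of set-25 a mutant line below WT in every generation, and that of set-10 a mutant line that drops after 23C-G1.

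After the return to 15 °C 2 of the 41 genes were called against the first 15 °C generations. This comparison shares its 15C libraries with that of temperature. In WT none of 41 was called higher (2.45% of all genes) and 2 lower, set-11 and set-15 (1.13% of all genes). In hrde-1 none was called higher (1.19%) or lower (0.635%) by limma, with 3 genes at an unadjusted p under 0.05, and the difference between genotypes was called for none (0.625% and 0.428% of all genes), with 4 at that p. Both genes called in WT were near the floor. For set-15, a SET domain gene on chromosome IV at 4776364 to 4780229 (minus strand), WT was at 2.66, 2.41 and 4.63 RPKM in 15C-G1 to G3 and at 1.53, 0.85 and 0.69 RPKM in p15C-G1 to G3, which are 2 to 5 reads and 1 to 2 reads. In WT 23C-G1 to G6 set-15 was at 1.24, 2.26, 3.6, 2.98, 0.97 and 2.42 RPKM. In hrde-1 set-15 was at 2.67, 2.62 and 2.31 RPKM in 15C-G1 to G3, at 1.86, 1.23, 1.17, 1.29, 1.26 and 3.8 RPKM in 23C-G1 to G6, and at 1.29, 1.54 and 0.67 RPKM in p15C-G1 to G3. The WT libraries of p15C lay below those of 15C-G1 to G3, and the 23 °C libraries of both genotypes overlapped both groups. The 2.98, 1.67 and 1.35 RPKM of set-11 in WT p15C-G1 to G3 are 1 to 2 reads. The log2 change of set-15 was -1.05 (adjusted p = 0.0742 by limma), and that of set-11 was -1.05 (adjusted p = 0.0589 by limma). The siRNAs of set-18 were at 0.94 ± 0.30 in WT, under 2-fold (adjusted p = 0.0881 by limma), and at 1.88 once the floor of 1 read was taken off. Without WT 15C-G1, p15C-G2 or p15C-G3 neither was called, and without WT 15C-G2 or 15C-G3 only set-11 was.

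The low genes carried few reads. For set-30, set-13, set-6 and set-11 between 13 and 20 of the 24 libraries were at 1 read, and none of the 4 held more than 5.02 reads in a library. For set-12, set-15, set-19 and set-20 the highest library held 5.01 to 9.16 reads. The calls of set-11 and set-15 rest on such numbers.

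Genes that work with these enzymes were followed as a list of 45 further genes: subunits of the lysine 4 (COMPASS), Polycomb-like and LSD1 complexes, readers of lysine 9 and lysine 36 methylation, other histone methyltransferases, and JmjC genes, some of which the table gives under other names. Of the 45, 6 were called in at least 1 of the 11 comparisons, and all 6 lie on X, where 9 of the 45 are. Of all genes 19.5% were called in at least 1 comparison, and of all X genes 20.9%. Of the 41 genes 5 were (12.2%), of which set-8 alone is on X. None of the 9 COMPASS genes, such as wdr-5.1, ash-2 and rbbp-5, and neither of mes-3 and mes-6, the partners of mes-2, was called anywhere.

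The largest fold changes among these 6 were in the DOT1 family, whose human relative methylates lysine 79 of histone H3. For dot-1.3 WT had 3.62, 2.46 and 5.68 RPKM in 15C-G1 to G3 and 9.89 to 45.19 RPKM in every later generation, while hrde-1 had 30.05, 48.24 and 64.91 RPKM in 15C-G1 to G3 and 7.88 to 41.78 RPKM later. The genotypes did not overlap at 15C-G1 to G3 and overlapped afterwards. In phase I dot-1.3 was higher in hrde-1 by 3.29 ± 0.44 on the log2 scale (adjusted p = 8.43e-06 by limma). At 23 °C it rose by 2.10 ± 0.44 in WT (adjusted p = 0.00298 by limma) and fell by 1.249 ± 0.44 in hrde-1 (adjusted p = 0.0332 by limma), a difference of -3.35 ± 0.63 (adjusted p = 0.00413 by limma). Without hrde-1 15C-G3 or 23C-G4 the mutant change was -0.998 or -0.964 and not called, and it was also lost with a pseudocount of 10 RPKM (-0.93) and with the floor taken off (-1.41, adjusted p = 0.187 by limma). In p15C-G1 to G3 the WT level was still higher than at the start, by 2.92 ± 0.50 (adjusted p = 0.00441 by limma), and this change differed between genotypes (-3.45 ± 0.70, adjusted p = 0.0176 by limma).

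For dot-1.2 the 23 °C generations were high in both genotypes. WT went from 18.2 to 28.5 RPKM at 15 °C to 107 to 150 RPKM in 23C-G1 to G6 and back to 17.5 to 26.6 RPKM. In hrde-1 it was at 9.61, 10.77 and 4.74 RPKM, then at 34.34, 30.18, 84.2, 108.22, 136.32 and 150.64 RPKM in 23C-G1 to G6, then at 31.8, 11.68 and 12.45 RPKM. The mutant values at 23C-G1 and G2 were far below the WT ones, and those at 23C-G5 and G6 were close to them. The log2 change at 23 °C was 2.42 ± 0.40 in WT (adjusted p = 0.000254 by limma) and 3.34 ± 0.40 in hrde-1 (adjusted p = 6.73e-06 by limma). Between genotypes dot-1.2 was lower in hrde-1 in phase I (-1.49 ± 0.35, adjusted p = 0.0062 by limma) and phase II (-1.35 ± 0.35, adjusted p = 0.018 by limma). Without hrde-1 23C-G1 or 23C-G2 the phase II value was -1.16 or -1.07 and not called, and with a pseudocount of 10 RPKM the phase I value was -0.92.

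The most abundant of this family was dot-1.5, at 511 to 1158 RPKM in WT and 246 to 608 RPKM in hrde-1. Its log2 fold change was -1.18 ± 0.21 in phase I (adjusted p = 0.000366 by limma), -1.12 ± 0.21 in phase IV (adjusted p = 0.000637 by limma) and -1.002 ± 0.106 in the mean of the phases (adjusted p = 7.78e-08 by limma). The last sits at the 2-fold limit. It was -0.984 with a pseudocount of 10 RPKM and between -0.913 and -0.998 without any of WT 15C-G1, 23C-G3, 23C-G4, 23C-G6, p15C-G2 and p15C-G3 and hrde-1 15C-G3, 23C-G1, 23C-G4, 23C-G5, p15C-G1 and p15C-G3. Without hrde-1 15C-G3 the phase I value was -0.83.

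The lysine 27 demethylase genes jmjd-3.1 and jmjd-3.3, which the table gives under other names, had lower values at 23 °C in both genotypes. The other genes listed as lysine 27 demethylases, utx-1 and jmjd-3.2, were called in no comparison. The mean of utx-1 was higher in 23C-G2 to G6 than at 15 °C (10.7 and 7.25 RPKM in WT, 9.53 and 8.16 RPKM in hrde-1). For jmjd-3.1 WT had 373 to 549 RPKM at 15 °C and 157 to 268 RPKM in 23C-G2 to G6 (log2 change -1.12 ± 0.22, adjusted p = 0.0013 by limma), and in phase I it was lower in hrde-1 by -1.09 ± 0.24 (adjusted p = 0.00362 by limma). Without WT 15C-G1 these values were -0.94 and -0.91, and without hrde-1 15C-G3 the second was -0.77. In hrde-1 jmjd-3.1 was at 129.31 to 299.02 RPKM at 15 °C and at 120 to 164.11 RPKM in 23C-G2 to G6 (-0.53 ± 0.22, adjusted p = 0.0629 by limma), under 2-fold. For jmjd-3.3 hrde-1 had 179.38, 106.98 and 66.89 RPKM at 15 °C and 48.2, 41.22, 35.39, 30.58, 30.9 and 23.57 RPKM in 23C-G1 to G6 (log2 change of 23C-G2 to G6 -1.74 ± 0.25, adjusted p = 7.49e-05 by limma). WT had 143.83, 85.28 and 117.67 RPKM of jmjd-3.3 at 15 °C and 52.59 to 70.13 RPKM in 23C-G2 to G6, without overlap (-0.85 ± 0.25, adjusted p = 0.0369 by limma), also under 2-fold. The difference between genotypes was called for neither gene (adjusted p = 0.262 and 0.259 by limma). In phase III jmjd-3.3 was lower in hrde-1 than in WT by -1.05 ± 0.27 (adjusted p = 0.0147 by limma), and not called without WT or hrde-1 23C-G6 (-0.99 or -0.92) or with a pseudocount of 10 RPKM (-0.86). The gene hpl-1, which encodes a heterochromatin protein that binds methylated lysine 9, was lower in hrde-1 in phase IV (-1.21 ± 0.27, adjusted p = 0.00311 by limma; 107 ± 21.8 RPKM in WT and 45.2 ± 4.86 RPKM in hrde-1, SD, n = 3).

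**Figure D5:**
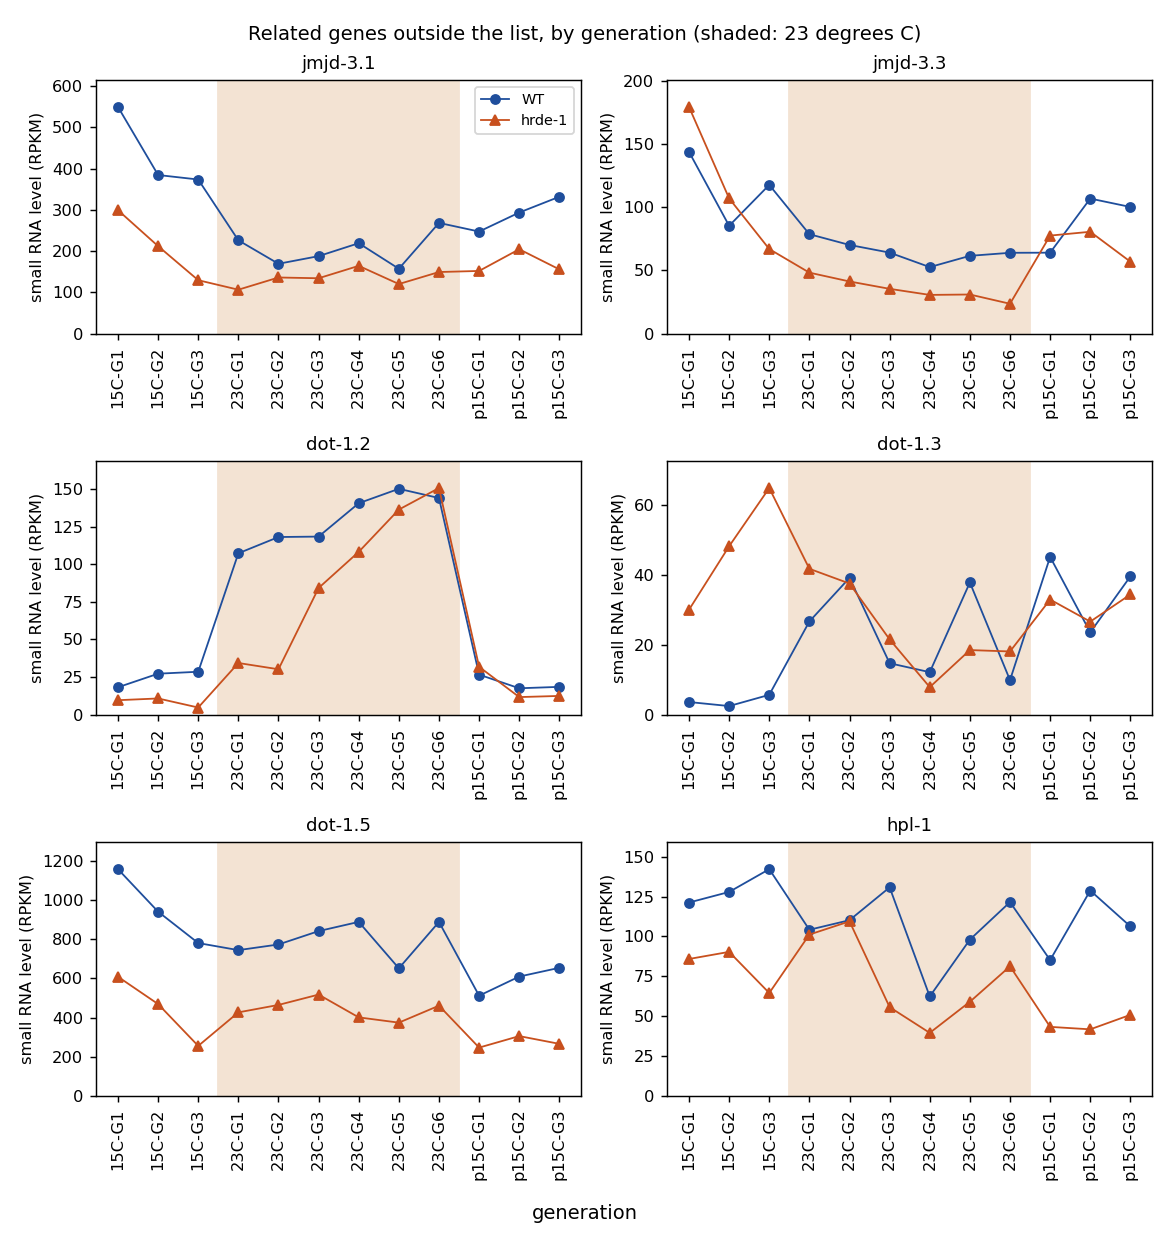
Levels of the 6 called genes of the wider list in RPKM over the 12 generations, WT as circles and hrde-1 as triangles, with the 23 °C generations shaded and each axis starting at 0. For dot-1.2 both lines rise at 23 °C with the mutant later than WT, for dot-1.3 the lines start apart and then overlap, and for dot-1.5 the mutant line lies below WT.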

How the data were processed

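The authors aligned small RNA reads with Bowtie 0.12.7 to the mRNA database of WormBase WS190, kept perfect antisense alignments and deposited RPKM values per transcript and library (20911 transcripts). All 24 value columns were mapped to samples and 0 columns were left unmapped. Each gene was represented by its transcript of highest mean. Values were taken as log2(RPKM + 1), and the 19839 genes averaging 1 RPKM or more were fitted by linear models with a trended empirical Bayes variance and two-sided tests (limma 3.58.1, R 4.3.3), in a model of 8 means by genotype and phase and a second of 8 means by genotype and 15C, 23C-G1, 23C-G2 to G6 or p15C. Python 3.11.15, pandas 2.3.3 and matplotlib 3.10.9 were used for the rest. No count model was run, since the values are not counts. Genes were placed and renamed by the WBcel235 annotation, which matched all 41 genes and 97.1% of all genes. Its coordinates are not those of WS190.

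The rule for the 41 genes uses names only, but that rule and the lists were chosen with earlier results of these data known. Genes called in any of the 11 comparisons were given with every library, the rest by range and count, and up to 4 called genes of the wider list per comparison. Genes past the adjusted p but under 2-fold (set-25, rbr-2, set-23, set-33, mes-2, mes-4, set-16, met-2, set-32) were chosen after their values were seen. The implied reads assume that 1 step is 1 read, and 92.8% of low values of 11842 transcripts lay on whole or 0.5 steps (tolerance 0.1). Alternatives were another pseudocount, other filters, median-ratio scaling, the floor taken off, eBayes without trend, a replicate block and leaving out each library that enters a comparison.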

Additional observations from a re-analysis of the deposited data

Results flagged for a closer look

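The response to 23 °C differed between genotypes, by the interaction contrast in limma, for 3 genes. The difference (hrde-1 minus WT, log2 scale) was -1.22 for set-10, 1.21 for set-11 and -1.42 for set-18. These are the values given above, and set-11 and the WT side of set-18 rest on 1 to 5 reads per library.

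Single libraries lay far from the other 4 of the generations 23C-G2 to G6 in 3 cases. For set-10 in WT 23C-G3 was low at 20 RPKM, for set-15 in hrde-1 23C-G6 was high at 3.8 RPKM, and for set-18 in hrde-1 23C-G4 was low at 97.47 RPKM. These were picked by Dixon's 95% critical value among 10 groups examined, and by its construction about 1 group in 20 passes it by chance.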

How the results depend on the processing

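For the 24 named results of the 41 genes, 441 refits under other settings or without 1 library gave no change of direction, 390 stayed past their threshold and 51 did not. With a pseudocount of 10 RPKM the number of genes called was 1 in place of 3 in phase I, 1 in place of 2 in the mean of the phases, 0 in place of 1 at 23 °C in WT, 0 in place of 2 after the return in WT, and 0 in place of 3 for the genotype difference in the 23 °C response. With the floor taken off it was 2 at 23 °C in WT and 1 after the return in WT (set-18 in place of set-11 and set-15), where it was 0 among genes of at least 10 RPKM. The floor taken off also brought set-12 past the threshold in the mean of the phases (1.06).

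Leaving out each library that enters a comparison, the number called ran from 1 to 3 in phase I, from 1 to 2 in phase II, at 1 in phase III, at 2 in phase IV and in the mean of the phases, from 1 to 2 at 23 °C in WT, from 0 to 1 at 23 °C in hrde-1, from 0 to 2 after the return in WT, at 0 after the return in hrde-1, from 0 to 4 for the genotype difference in the 23 °C response and at 0 for that after the return. The cause of these moves was not tested. Nothing in the labels pairs the WT and hrde-1 libraries of a generation beyond the number. The correlation of their deviations ran from -0.016 to 0.367 and was over 0.1 in 10 of 12 pairs, and 21 of 24 libraries correlated best with their own number, a hint of pairing from the data and not the design. With the replicate block the number called was 3, 1, 1, 2 and 2 in phases I to IV and their mean, and 3 and 0 for the genotype differences, as without it. Depth limits the 10 genes under 10 RPKM.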
